A study of Homo sapiens with 5 samples.

Results

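EMX1, EMX2, PAX6, OTX1, GLI3, RAX, NKX2-1, GSX2 and SP8 are 9 transcription factors that pattern the forebrain between its dorsal and its ventral side. They were chosen by symbol, and are 9 of the 32732 genes that were listed in all 8 single-cell RNA-seq libraries. The libraries came from the wild-type human embryonic stem cell line WA09 along its differentiation into GnRH neurons, the hypothalamic neurons that control reproduction. D0 held undifferentiated cells. D5_dSMADi and D10_dSMADi held cells under dual SMAD inhibition by dorsomorphin and SB431542 (dSMADi), which turns stem cells into neural progenitors. D5_XAV939 and D10_XAV939 held cells given the same 2 inhibitors plus 10 µM XAV939, an inhibitor of tankyrase that lowers Wnt signalling through beta-catenin. D22, D24 and D26 held cells that had dSMADi without XAV939, then FGF8 from day 11, a freeze and thaw, and finally the Notch pathway inhibitor DAPT. Each condition was 1 library from 1 cell line, so no difference could be tested against replicates. All intervals below are 95% intervals that cover counting error only.

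In the embryonic forebrain, Wnt and BMP signals come from the dorsal midline and Hedgehog signals from the ventral side. EMX1, EMX2 and PAX6 are homeodomain factors of the dorsal side that forms the cortex, OTX1 acts in the forebrain and midbrain, and GLI3 is the zinc finger factor whose short form represses Hedgehog targets and keeps the dorsal side dorsal. RAX marks the eye field and the hypothalamus, NKX2-1 the hypothalamus and the medial ganglionic eminence, and GSX2 the lateral ganglionic eminence. SP8 is a zinc finger factor of the anterior border of the neural plate, where FGF8 is made, and of some interneurons.

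The sequences just before the start sites of OTX1, EMX2 and SP8 are shown because OTX1 was at least 2-fold lower with XAV939 on both days, the ratio of EMX2 differed most between the days, and that of SP8 was nearest to 1 on both. They are the 250 bases before the RefSeq start site in GRCh38.p14, at chr2:63050580-63050829 (plus strand), chr10:117542496-117542745 (plus strand) and chr7:20786887-20787136 (minus strand). Capitals mark the core letters bound by TCF/LEF factors, the partners of beta-catenin (CTTTGAA or CTTTGAT on either strand), and the homeodomain core TAATTA, which reads the same on both strands.
OTX1: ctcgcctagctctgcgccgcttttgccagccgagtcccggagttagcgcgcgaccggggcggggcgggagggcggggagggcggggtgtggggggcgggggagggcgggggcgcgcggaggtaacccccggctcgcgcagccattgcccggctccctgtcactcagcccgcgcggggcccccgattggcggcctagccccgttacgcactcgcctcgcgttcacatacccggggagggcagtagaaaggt
EMX2: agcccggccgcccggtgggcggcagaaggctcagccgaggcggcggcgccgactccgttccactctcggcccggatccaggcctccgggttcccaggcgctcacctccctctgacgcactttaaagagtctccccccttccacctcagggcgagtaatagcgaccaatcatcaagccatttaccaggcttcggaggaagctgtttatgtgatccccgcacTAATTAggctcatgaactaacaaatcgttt
SP8: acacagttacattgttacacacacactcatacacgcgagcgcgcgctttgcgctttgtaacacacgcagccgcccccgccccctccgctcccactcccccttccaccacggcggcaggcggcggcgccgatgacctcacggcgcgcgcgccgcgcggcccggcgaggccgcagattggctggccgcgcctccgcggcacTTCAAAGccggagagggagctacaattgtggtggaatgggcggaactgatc
The SP8 window held 1 TCF/LEF core, 51 bases before the start site, and the OTX1 and EMX2 windows held none. The EMX2 window held 1 homeodomain core. Of 35116 RefSeq promoter windows of this length, 5.94% held a TCF/LEF core and 4.35% the homeodomain core. The GC box GGGCGG, read on both strands, stood 6 times in the OTX1 window, 2 times in the EMX2 window and 3 times in the SP8 window, and at least 1 time in 42.6% of all windows. The OTX1 and EMX2 windows lie inside the span annotated for these genes in the files' build, since other transcripts start further upstream. The windows are described by their letters only.

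In GRCh38, EMX1 lies on chromosome 2 (72916260 to 72936071, plus strand), OTX1 also on chromosome 2 (63050057 to 63057836, plus), EMX2 on chromosome 10 (117542445 to 117549546, plus) and PAX6 on chromosome 11 (31784779 to 31817961, minus). GLI3 and SP8 lie on chromosome 7 (41960949 to 42264100 and 20782279 to 20786886, both minus), RAX on chromosome 18 (59267035 to 59274086, minus), NKX2-1 on chromosome 14 (36516392 to 36521149, minus) and GSX2 on chromosome 4 (54099523 to 54102498, plus). EMX2 is overlapped on the opposite strand by EMX2OS, PAX6 by ELP4 and PAUPAR, and NKX2-1 by NKX2-1-AS1, and GSX2 is overlapped on its own strand by ENSG00000282278, which was listed for D22 to D26 only. Whether strand was used in counting is not given in the sources used here, so the levels of EMX2, PAX6 and NKX2-1 are uncertain to that extent. The overlap at GSX2 is on its own strand, so the use of strand would not settle it. EMX2OS stood at 5.43 CPM (UMIs of a gene per 1000000 UMIs of the library) in D5_dSMADi, 1.45 in D5_XAV939, 10.9 in D10_dSMADi, 9.75 in D10_XAV939 and 140 at D22, each below EMX2 itself, and ELP4 between 17.3 and 62.9 over the libraries.

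Between 1009 cells (D0) and 11056 cells (D26) were kept per library, with 58073098 to 130440502 unique molecular identifiers (UMIs, single counted transcripts) and medians of 69455 UMIs per cell at D0, 24290.5 to 31112.5 at D5 and D10 and 7180 to 12179 at D22 to D26. D0, D5 and D10 were tagged and run together, and the tag named by the labels held 95.1% to 95.6% of the tag counts of each. They shared no barcode among themselves, and D22, D24 and D26, which were separate runs, shared 26 to 32. The pluripotency markers were all above 10 CPM at D0 (6 of 6, summed 2838), and STMN2, a neuronal gene, had a UMI in 99.6% of D24 and 99.9% of D26 cells thinned to 5000 UMIs. The neural crest markers summed to 306 CPM in D10_dSMADi and 110 in D10_XAV939, with 1 of the 6 above 10 in each. At D5 they summed to 91.8 without and 67.4 with XAV939. The surface ectoderm or placode markers summed to 418 CPM in D5_dSMADi, 255 in D5_XAV939, 342 in D10_dSMADi and 222 in D10_XAV939, with 3 or 4 of the 7 above 10 in each. KRT8, KRT18 and KRT19 made up most of these sums, which were 1011 at D0, while KRT5 had 0 UMIs in each, GATA3 stood at 0.29 or less, and TFAP2A at 0.80 or less except in D10_XAV939 (10.2). The summed level of both lists was lower with XAV939 on both days, and the part of such cells in the results below was not tested. Between D10 and D22 the run, the Cell Ranger version and the gene list also differed, so day and run cannot be told apart across that step. Levels are given in CPM, counted at the 3′ end of transcripts, and shares are of cells thinned to 5000 UMIs each. Fewer cells making a gene and less RNA per cell are both contained in a level.

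PAX6, which acts in cortical progenitors and the eye, had its highest level at D10 without XAV939. It stood at 5.73 at D0, 157 in D5_dSMADi, 82.3 in D5_XAV939, 246 in D10_dSMADi, 142 in D10_XAV939, 95.8 at D22, then 34.2 at D24 and finally 115 at D26. The 2 libraries without XAV939 of D5 and D10 were the highest and D0 the lowest, and D26 lay above both D24 and D22. The share of cells with a PAX6 UMI was 3.17% at D0, 65.7% in D10_dSMADi, 34.4% at D22, 12.1% at D24 and 33.6% at D26, so the share at D26 was not above that at D22. D0 cells went through the same droplet run as D5 and D10 and were the deepest before thinning. Whether their share is a background for D5 and D10 was not tested.

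GLI3 stood at 23.7 at D0, 109 in D5_dSMADi, 95.3 in D5_XAV939, 221 in D10_dSMADi, 143 in D10_XAV939, 40.6 at D22, then 1.88 at D24 and finally 0.73 at D26. The high level therefore belonged to the progenitor stages, and D24 and D26, which were mostly neurons, were far below D22. Unlike the other members, GLI3 was already counted in 11.6% of D0 cells, against 63.2% in D10_dSMADi and 0.33% at D26. From D22 to D24 its level was 21.6-fold lower.

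EMX2 had its highest levels in the late libraries. It stood at 1.37 at D0, 46.6 in D5_dSMADi, 5.36 in D5_XAV939, 62.9 in D10_dSMADi, 45.2 in D10_XAV939, 299 at D22, then 594 at D24 and finally 424 at D26. All 3 late libraries were above all 5 early ones, and 85.2% of D24 cells held an EMX2 UMI, against 25.1% in D10_dSMADi and 0.79% at D0. EMX1, its paralogue, did not share this course. It stood at 3.33 at D0, 1.71 in D5_dSMADi, 1.16 in D5_XAV939, 0.33 in D10_dSMADi, 0.48 in D10_XAV939, 33.6 at D22, 0.87 at D24 and 0.04 at D26. EMX1 was thus a gene of D22, with a 38.6-fold lower level 2 days later, while the EMX2 level at D24 was 1.99-fold that of D22. At D0 the 253 EMX1 UMIs were spread over 203 of the 1009 cells, and the level at D5 and D10 was below that of the undifferentiated cells.

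OTX1 stood at 1.12 at D0, 27.1 in D5_dSMADi, 11.9 in D5_XAV939, 14.2 in D10_dSMADi, 3.31 in D10_XAV939, 3.11 at D22, 0.43 at D24 and 0.31 at D26. It was the member whose highest level came at D5 without XAV939, and the intervals of D10_XAV939 and D22 overlapped. RAX stood at 2.56 at D0, 52.6 in D5_dSMADi, 58.1 in D5_XAV939, 53.5 in D10_dSMADi, 33.3 in D10_XAV939, 1.14 at D22 and 0.03 at D24, with no UMI at D26. The eye field gene was therefore counted in both treatments at D5 and D10, in 13.6% to 24.4% of cells, and in 0.56% at D22. At D0, in the same droplet run, 1.09% of cells held a RAX UMI. SP8 stood at 7.52 at D0, 33.4 in D5_dSMADi, 33.9 in D5_XAV939, 47.3 in D10_dSMADi, 40.8 in D10_XAV939, 21.4 at D22, then 5.89 at D24 and finally 10.2 at D26, a course with its peak at D10. As a fold, though not in CPM, its range was smaller than that of the other members with counts at all stages.

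The ventral members were almost absent before D22. GSX2 had 1 UMI at D0, none in any D5 or D10 library, 1316 at D22 in 647 of 9523 cells, 19 at D24 and 14 at D26. A count of 0 in D10_dSMADi has an upper 95% limit of 0.0468 CPM, against 10.1 CPM at D22. NKX2-1 had no UMI at D0, in either D5 library or in D10_dSMADi, then 13 in D10_XAV939, 1 at D22, 12 at D24 and 83 at D26. Its 13 UMIs in D10_XAV939 came from 9 cells with at most 3 in a cell, and its 83 UMIs at D26 from 25 of 11056 cells with up to 11 in a cell. At least 2 UMIs were held by 3 of the 9 cells in D10_XAV939, by 4 of 4 at D24 and by 17 of the 25 at D26, so NKX2-1 was counted in very few cells at any stage.

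**Figure D1:**
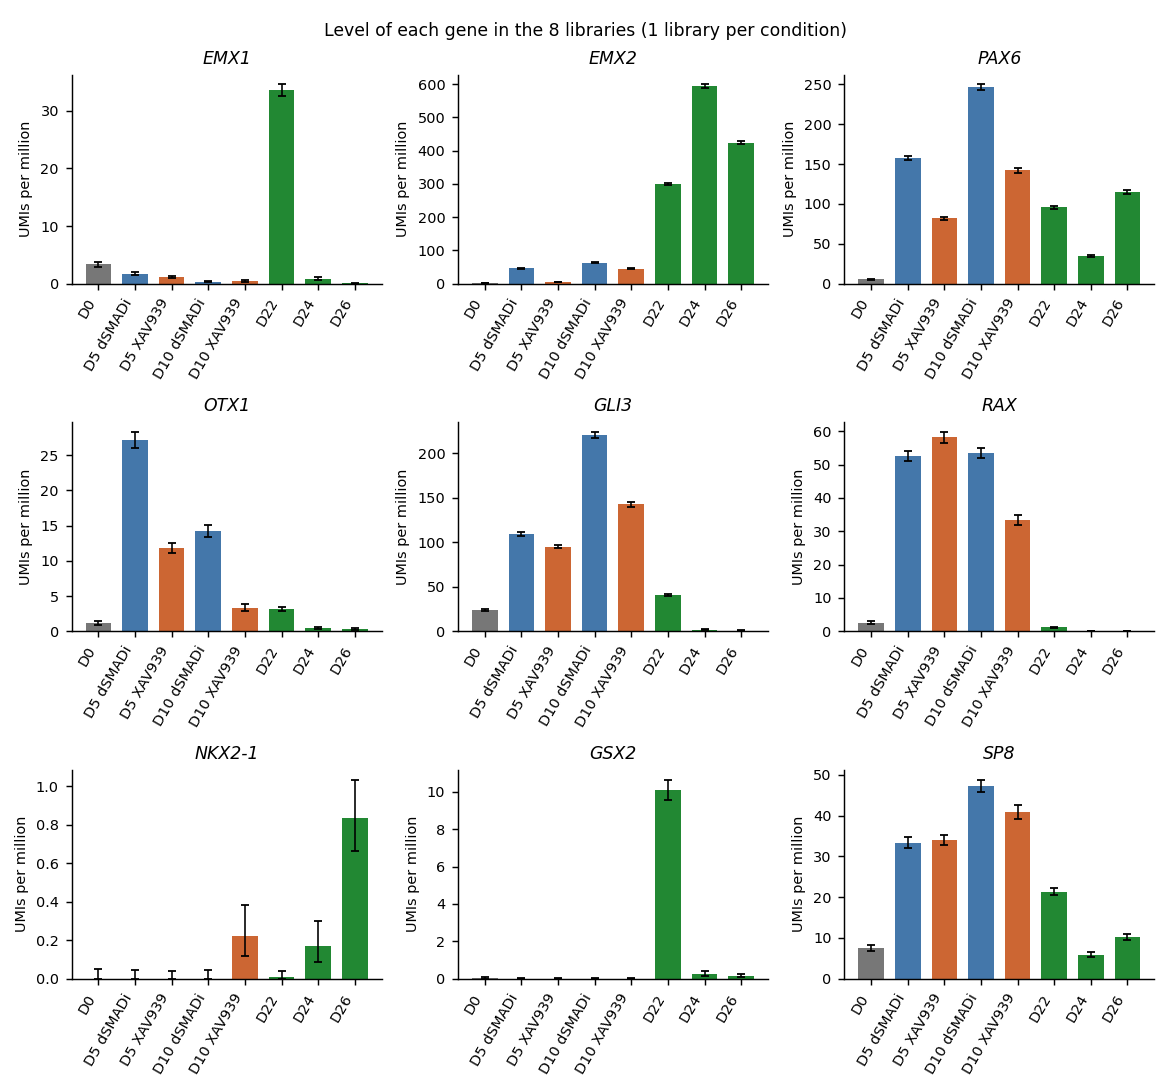
Bars give the level of each of the 9 genes in CPM (y axes from 0, a different scale in each panel) in the 8 libraries, with exact Poisson 95% intervals that cover counting error only; grey is D0, blue dSMADi, orange dSMADi with XAV939 and green D22 to D26. EMX2 is highest at D24 (594), PAX6 and GLI3 in D10_dSMADi (246 and 221), OTX1 in D5_dSMADi (27.1), and EMX1 and GSX2 at D22 (33.6 and 10.1).

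The comparison of XAV939 with no XAV939 asked how these factors stood when an inhibitor of Wnt signalling was given during neural induction. At D5 EMX2, OTX1 and PAX6 differed most. EMX2 had 3714 UMIs in D5_dSMADi and 465 in D5_XAV939, an 8.69-fold lower level with XAV939 (log2 ratio -3.12, interval -3.26 to -2.98), and the share of its cells was 20.05% against 2.02%. OTX1 was 2.29-fold lower (log2 ratio -1.195, -1.304 to -1.087), and PAX6 1.91-fold lower (-0.94, -0.98 to -0.89), just inside 2-fold. These 2 members past 2-fold were 2 of the 7 measured members, against 5.54% of all 21869 genes measured at D5, and no member was at least 2-fold higher, against 5.75% of all genes. Among the 6016 genes that reached 20 CPM with or without XAV939, 0.565% were at least 2-fold lower, and EMX2 had rank 2 and OTX1 rank 23 from the lowest ratio.

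EMX1 was 1.47-fold lower with XAV939 at D5 (-0.55, -0.94 to -0.17) at a level near 1 CPM. The log2 ratio of GLI3 was -0.20 (-0.24 to -0.16). RAX was 1.11-fold higher with XAV939 (0.14, 0.09 to 0.20), and SP8 differed by less than counting error (0.02, -0.05 to 0.10). The median log2 ratio of all genes was 0.05, near 0. NKX2-1 and GSX2 had no UMI in either library and gave no ratio.

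At D10 the order of the members was different. OTX1 had the lowest ratio, with 1118 UMIs in D10_dSMADi and 192 in D10_XAV939, a 4.29-fold lower level (log2 ratio -2.10, -2.33 to -1.88). PAX6 (-0.79, -0.83 to -0.76), RAX (-0.68, -0.76 to -0.61), GLI3 (-0.63, -0.67 to -0.59), EMX2 (-0.48, -0.54 to -0.41) and SP8 (-0.21, -0.29 to -0.14) were lower by less than 2-fold, and their intervals did not include 0. One of the 8 measured members was thus at least 2-fold lower, against 10.6% of all 22176 genes. One was at least 2-fold higher, against 5.43%. It was NKX2-1, with 13 UMIs in D10_XAV939 and 0 in D10_dSMADi, a log2 ratio with a lower 95% limit of 2.05. EMX1, with 28 and 26 UMIs, had an interval from -0.28 to 1.37, and GSX2 was not counted in either library. The median of all genes was -0.03. Among the 6537 genes that reached 20 CPM with or without XAV939 at D10, 1.18% were at least 2-fold lower and 1.04% higher. OTX1 and NKX2-1 did not reach 20 CPM at D10.

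**Figure D2:**
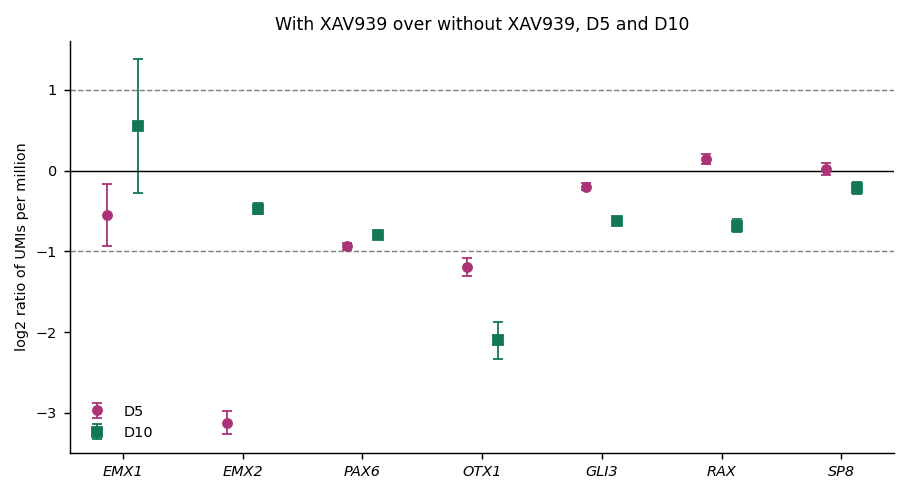
Points give the log2 ratio of CPM with XAV939 over without XAV939 at D5 (circles) and D10 (squares) for 7 genes, with 95% intervals that cover counting error only, and dashed lines mark 2-fold. EMX2 lies at -3.12 at D5 and -0.48 at D10, OTX1 below -1 on both days, and RAX at 0.14 and -0.68; NKX2-1 and GSX2, with 0 UMIs in 1 or both libraries of each day, are not drawn.

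From D5 to D10 the step of each member was set side by side without and with XAV939. The EMX2 level went from 46.6 to 62.9 without XAV939 (1.35-fold) and from 5.36 to 45.2 with it (8.43-fold), so that the 2 libraries were closer at D10 than at D5. OTX1 was lower at D10 than at D5 in both arms, by a log2 ratio of -0.94 without and -1.84 with XAV939. RAX had a log2 step of 0.02 (-0.04 to 0.09) without and -0.80 with XAV939, and GLI3 one of 1.01 without and 0.58 with it. PAX6 was higher at D10 in both arms, by 0.65 and 0.79.

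At D10 a cluster of 78 neuron-like cells, led by STMN2, NEFM and SST, held 17 cells of D10_dSMADi and 61 of D10_XAV939. Without it, an alternative chosen after seeing the data, the log2 ratios were -2.09 for OTX1, -0.78 for PAX6, -0.67 for RAX, -0.61 for GLI3, -0.47 for EMX2 and -0.20 for SP8. Inside the cluster PAX6 (89 against 8 UMIs, 1.40, 0.36 to 2.65) and GLI3 (53 against 2 UMIs, 2.65, 0.73 to 5.73) were higher with XAV939, on few UMIs. PAX6 (52.9), GLI3 (29.97) and RAX (13.6) had lower levels in these cells than in any other D10 cluster, and EMX2 stood at 42.5, within the range of the others (23.0 to 77.4). Apart from this cluster, each D10 cluster held at most 9 cells of the second library, and the progenitors were compared as whole libraries for that reason. MKI67, a gene of dividing cells, had a UMI in 34.4% of D10_dSMADi and 42.6% of D10_XAV939 cells, and the part of this in the ratios was not tested.

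Other genes of the forebrain gave the setting for these ratios, to be read against 10.6% of all genes at least 2-fold lower and 5.43% higher at D10. Among genes that reached 20 CPM these shares were 1.18% and 1.04%. Of 20 measured genes of the dorsal forebrain at D10, 6 were at least 2-fold lower and 5 at least 2-fold higher with XAV939 (median log2 ratio -0.45), and EMX2, PAX6, OTX1 and GLI3 stood on the lower side with WNT2B (15.0 against 110 CPM), a Wnt ligand of the dorsal midline, and DMRTA2 (11.7 against 32.2), while ZIC1 was higher (23.6 against 2.64). Of 17 genes of the anterior border, eye field and hypothalamus, 3 were lower and 10 higher (median 1.44). SIX3, a factor of the eye field, stood at 111 with XAV939 and 30.3 without, and DLK1 at 4281 and 1832, while RAX was lower with XAV939. Of 12 ventral forebrain genes none was lower and 7 were higher (median 1.29), all at or below 3.29 CPM. Of 13 Hedgehog pathway genes none was past 2-fold at D10 or D5 (medians 0.09 and 0.09), the pathway in which GLI3 acts. The midbrain, hindbrain and cord genes had 3 lower and 5 higher of 14 (median 0.46), and the beta-catenin feedback genes 2 lower and 1 higher of 13 (median -0.07). The summed level of the feedback genes was 257 CPM with XAV939 and 225 without. Only 3 of the 15 listed reached 10 CPM in each library, so the sum does not describe the list as a whole.

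At D5, where 5.54% of all genes were lower and 5.75% higher, the same groups gave 5 lower and 4 higher of 20 dorsal genes (median -0.09), 1 lower and 6 higher of 16 anterior border, eye field and hypothalamus genes (0.70), 4 lower and 3 higher of 12 ventral genes (0.04), 2 and 2 of 12 midbrain, hindbrain and cord genes (0.22), and 4 and 1 of 15 beta-catenin feedback genes (-0.06). The dorsal list leaves the members out, and 9 of its 22 genes reached 10 CPM in D5_dSMADi and 8 in D5_XAV939. Its genes went both ways at D5. Among the members, EMX2 (-3.12), OTX1 (-1.195), PAX6 (-0.94), EMX1 (-0.55) and GLI3 (-0.20) were lower, while RAX (0.14) and SP8 (0.02) were not. OTX2, the paralogue of OTX1, stood at 80.9 with XAV939 and 151 without at D5 (log2 ratio -0.90), and at 126 and 100 at D10 (0.33). OTX1 and OTX2 were thus both lower at D5, and OTX1 alone of the pair was lower at D10.

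Co-detection asks whether the members were counted in the same cells. Each cell was thinned to 5000 UMIs, and the number of cells with both genes of a pair was divided by the number expected from the product of their shares, for pairs with at least 10 expected cells. This ratio cannot exceed the inverse of the larger share of the pair. Pairs with PAX6 (65.7% of cells) or GLI3 (63.2%) in D10_dSMADi could therefore hardly reach 1.5. Pairs with EMX2 at D22 (70.5%) could not reach it. In D10_dSMADi 15 of the 36 pairs had enough cells, with ratios from 0.757 to 1.34 (median 1.03). PAX6 and GLI3 were together in 1022 cells, against 993 expected, and EMX2 and PAX6 in 402 cells, against 389. The dorsal factors were thus met together about as often as the product of their shares gives. EMX2 and OTX1 had the highest ratio (1.34, 1.02 to 1.72, 59 cells), and OTX1 and RAX the lowest (0.76, 0.51 to 1.08, 29 cells against 38.3 expected).

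In D10_XAV939 12 pairs had enough cells, with ratios from 0.844 to 1.15 (median 1.05), and the pairs of OTX1 with EMX2 and RAX were not among them. EMX2 and PAX6 had a ratio of 1.15 (1.00 to 1.30), and PAX6 and GLI3 one of 1.06 with 511 cells. No pair reached 1.5 in either D10 library, a value close to the upper bound for pairs with PAX6 or GLI3 in D10_dSMADi. The number of members per cell did differ, since 7.24% of D10_dSMADi and 19.0% of D10_XAV939 cells held none of them, and at most 5 were held by any cell (25 and 5 cells).

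At D22 22 pairs had enough cells, and the ratios ran from 0.464 to 1.68 (median 1.09). The pairs of GSX2 with the EMX factors were rarer than expected. EMX1 and GSX2 were together in 21 cells against 45.3 expected (0.46, 0.29 to 0.71), and EMX2 and GSX2 in 147 against 236 (0.62, 0.53 to 0.73). GLI3 and GSX2 were together more often, in 84 cells against 52.1 (1.61, 1.29 to 1.99), as were OTX1 and SP8, in 21 cells against 12.5 (1.68, 1.04 to 2.57). PAX6 and GSX2 had a ratio of 1.06 (0.88 to 1.27), and EMX1 and EMX2 one of 1.10 (1.04 to 1.17). No pair was past 1.5 at D22 when doublets were left out or cells were thinned to 10000 UMIs. Pairs with EMX2 could not be, because of its large share of cells.

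Cells of different classes were pooled in these D22 ratios, so they were taken again within classes. EMX2 and GSX2 had a ratio of 0.57 (0.42 to 0.75) among the 1939 cells of the dividing class and of 0.88 (0.70 to 1.07) in the GnRH-GABA-like class. EMX1 and GSX2 had 0.56 (0.26 to 1.07) and 0.57 (0.25 to 1.11), and GLI3 and GSX2 1.32 (0.94 to 1.79) and 1.12 (0.76 to 1.57). The low ratio of EMX2 with GSX2 was thus also present within dividing progenitors. The ratio of GLI3 with GSX2 was smaller within both classes than over all cells. Its intervals there included 1, but they hold the expected number fixed and are not a test of the pair. No pair with enough cells reached 1.5 within a class, and pairs with EMX2 in NNP-like cells could not, because of its large share there.

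**Figure D3:**
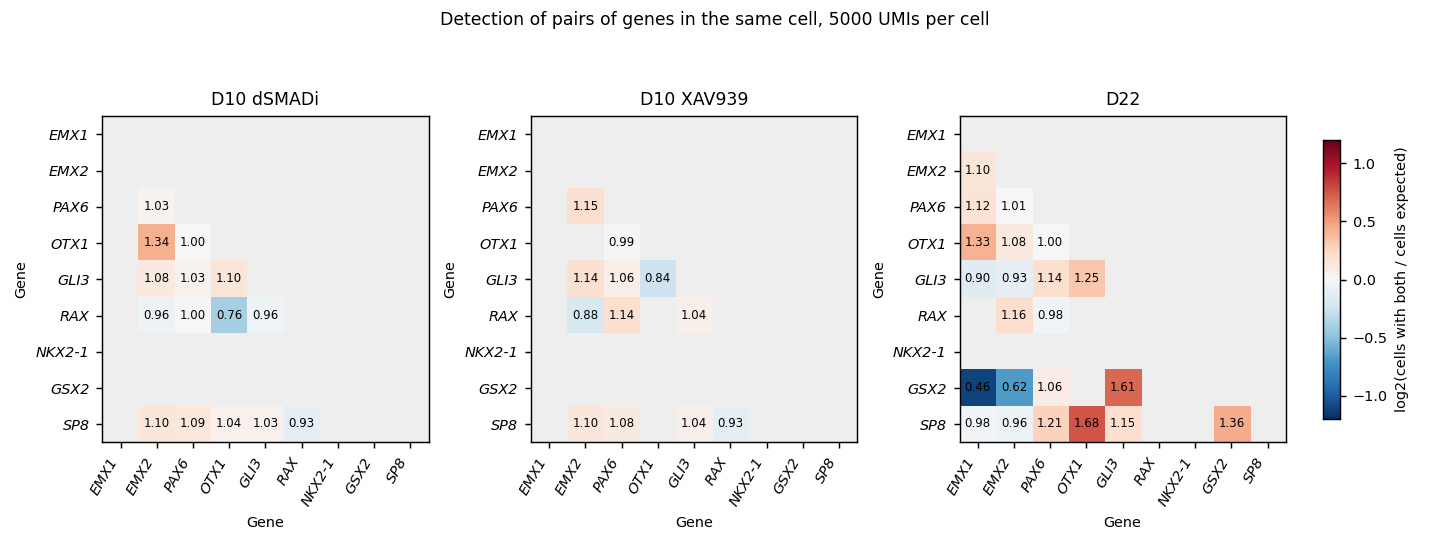
Each square gives, for the 2 genes of its row and column, cells with both genes over the cells expected from the 2 shares (printed ratio, colour on a log2 scale) in D10_dSMADi, D10_XAV939 and D22, with cells thinned to 5000 UMIs and grey where fewer than 10 cells were expected. The D10 panels stay between 0.76 and 1.34, and the D22 panel holds 0.46 for EMX1 with GSX2 and 1.68 for OTX1 with SP8.

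Partner genes were set beside the members at D22, over all cells and again within classes. DLX2, a factor of ventral, GABAergic precursors, was met with GSX2 more often than the product of shares gives (5.97, 5.004 to 7.065), and 21.1% of cells with DLX2 held GSX2, against 2.28% of the others. The ratio was 3.60 (2.591 to 4.866) within PNP-like cells and 1.23 (0.991 to 1.497) within GnRH-GABA-like cells, so it was smaller within classes. GSX2 with MKI67 had a ratio of 1.79 (1.502 to 2.124) over all cells, but 0.98 (0.81 to 1.18) within PNP-like and 1.28 (0.75 to 2.03) within GnRH-GABA-like cells. GSX2 was hardly met with TBR1, a factor of glutamatergic neurons (2 cells against 29.0 expected over all cells). EMX1 was met less often with DLX2 over all cells (0.49, 0.35 to 0.66) and within PNP-like (0.43) and GnRH-GABA-like cells (0.68), as was EMX2 (0.68 over all cells, then 0.68 and 0.80), although EMX2 had 1.08 (0.71 to 1.57) within NNP-like cells. SP8 with DLX2 had 1.46 (1.16 to 1.81) over all cells, but 0.83 (0.49 to 1.30) and 1.25 (0.96 to 1.59) within PNP-like and GnRH-GABA-like cells. With TBR1, EMX1 (0.27), PAX6 (0.38), GLI3 (0.26) and SP8 (0.38) were met less often over all cells, and also within NNP-like cells (0.33, 0.41, 0.41 and 0.48). EMX2 was met with TBR1 more often over all cells (1.25, 1.17 to 1.34) and had 1.11 (1.0006 to 1.2286) within NNP-like cells.

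Cells of D22, D24 and D26 were clustered without the members, and clusters took a name from marker genes. PNP-like (proliferating neural progenitors) and NNP-like (nonproliferating neural progenitors) clusters were almost all from D22. Glut-like clusters (glutamatergic neurons) were led by FSTL5, mostly from D24, and by GABRA2, mostly from D26. GnRH-GABA-like clusters were 2 led by GNRH1 and 1 of D22 led by ATP2B4, PLS3 and DLX1, and IRX-like clusters were led by SFRP2 and by CRABP1. The D22 values of the GnRH-GABA-like class rest mostly on the cluster led by ATP2B4, which held 921 D22 cells. With a lower and a higher clustering resolution, 144 and 137 D22 cells were in a DLX1-led cluster of that name, and at the higher one a cluster led by C1orf61 and ATP2B4, with 1647 D22 cells, had no name. Clusters led by CCNO, DDIT3 and CALB1 stayed unnamed. Such rebuilt names can differ from those of the study.

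EMX2 differed in level between the clusters. It stood at 661 CPM in the FSTL5-led and 514 in the GABRA2-led Glut-like cluster, and at 40.7 in the larger GNRH1-led cluster. In the IRX-like clusters it stood at 34.5 in the SFRP2-led one, of which 624 of 737 cells were from D22 and which had its next highest marker score as PNP-like, and at 80.7 in the CRABP1-led one. The PNP-like and NNP-like clusters ran from 239 in the HIST1H1B-led PNP-like to 458 in the EOMES-led NNP-like cluster, and 91.6% of Glut-like cells held EMX2 against 11.4% of IRX-like cells. The smaller GNRH1-led cluster, of which 273 of 275 cells were from D26, stood at 271. It also held TBR1 at 183, against 12.96 in the larger one, and had a median of 17296 UMIs per cell against 8661. When cells with the highest doublet scores were left out before clustering, 1 GNRH1-led cluster was found, of 2048 cells with a median of 8609 UMIs, and no second one. Within libraries, the log2 ratio of EMX2 in Glut-like over GnRH-GABA-like cells was 1.09, 2.97 and 2.51 on the 3 days in turn, and the GnRH-GABA-like cells of D22 were mostly those of the ATP2B4-led cluster (232).

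EMX1 was highest in the NEUROD4-led NNP-like cluster (49.4), which held 65.7% of its D22 UMIs, and stood at 27.9 and 31.0 in the PNP-like clusters, 23.4 in the ATP2B4-led cluster, 17.0 in the EOMES-led NNP-like cluster and at most 0.89 in the Glut-like clusters. The larger GNRH1-led cluster held no EMX1 UMI. It stood at 3.98 in the SFRP2-led IRX-like cluster. EMX1 was therefore counted mostly in the PNP-like, NNP-like and ATP2B4-led clusters of D22, and EMX2 both there and, at a higher level, in the Glut-like clusters. GLI3 was likewise high in the PNP-like clusters (55.7 and 68.1) and in the SFRP2-led IRX-like cluster (51.3), and stood at 35.5 in the NEUROD4-led NNP-like cluster, 13.7 in the EOMES-led one and 0.41 to 1.87 in the Glut-like and GNRH1-led clusters.

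PAX6 did not follow the classes in the same way on all days. In Glut-like cells it stood at 28.3, 28.2 and 125 on D22, D24 and D26, and in GnRH-GABA-like cells at 120, 126 and 90.3. The shares of cells ran from 11.2% at D24 to 36.9% at D26 in Glut-like cells and from 31.1% to 19.96% in GnRH-GABA-like cells. The FSTL5-led cluster held most Glut-like cells of D24 and the GABRA2-led cluster most of D26, so day and cluster cannot be told apart for most of these cells. At a higher clustering resolution, a Glut-like cluster led by AC114316.2, AC010247.2 and PTGER3 stood at 179 CPM in its 3198 D26 cells and at 216 in its 150 D24 cells, and the other large Glut-like clusters of D26 at 81.0 and 96.6. The last of these, led by TNIP3, stood at 95.4 in its 109 D24 cells. An FSTL5-led cluster of this resolution stood at 25.3 in its 5952 D24 cells and at 50.6 in its 52 D26 cells.

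SP8 was highest in the larger GNRH1-led cluster (42.7) and the HIST1H1B-led PNP-like cluster (35.5), and stood at 3.07 and 4.13 in the Glut-like clusters. The GnRH-GABA-like cells had the higher SP8 level in each library, with log2 ratios of Glut-like over GnRH-GABA-like cells of -2.35, -2.94 and -3.72 on the 3 days in turn. GSX2 stood at 51.8 in the ATP2B4-led cluster, 21.1 and 16.2 in the PNP-like clusters and 0.71 in the larger GNRH1-led cluster. Of its 1316 UMIs at D22, 44.3% came from the ATP2B4-led cluster, and 30.2% and 15.4% from the PNP-like clusters. DLX2, in contrast, stood at 162 in the larger GNRH1-led and 172 in the ATP2B4-led cluster. Of the 83 NKX2-1 UMIs at D26, 43 came from 13 of 1498 cells of the larger GNRH1-led cluster (3.30 CPM). Another 21 came from 6 of 149 cells of the CALB1-led cluster, at a higher level (15.9 CPM), and 8 from 1 NNP-like cell. OTX1 and RAX were at or below 5.74 and 1.68 in every cluster.

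**Figure D4:**
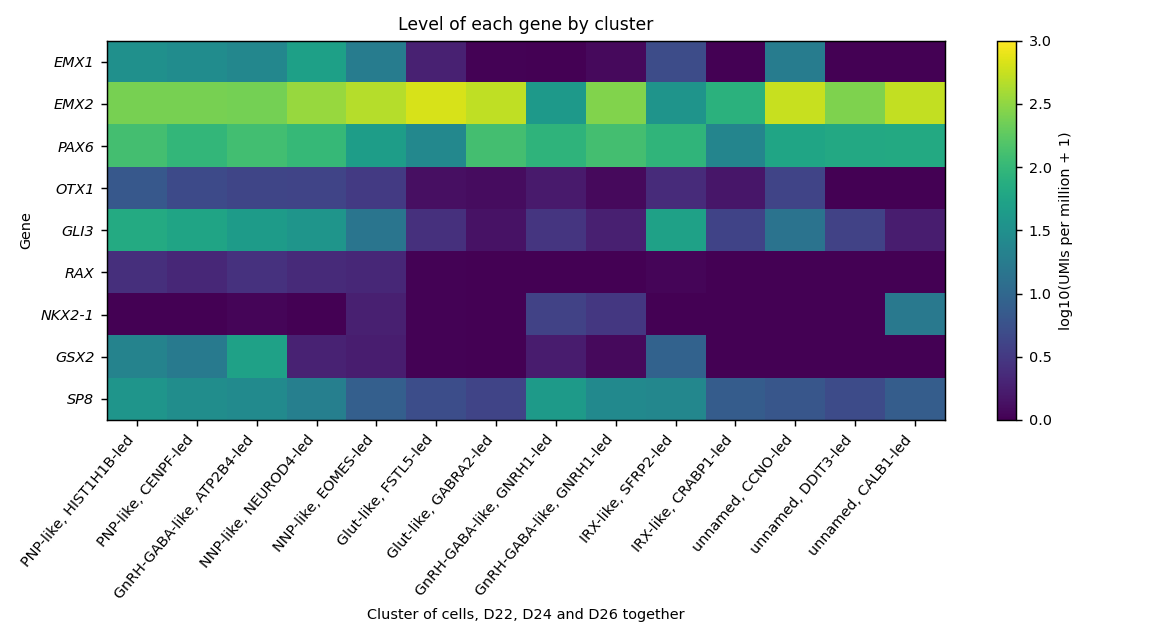
Colours give log10(CPM + 1) of each of the 9 genes (rows) in the 14 clusters of D22, D24 and D26 together (columns, named by class and leading gene). EMX2 is brightest in the Glut-like clusters (661 and 514), EMX1 and GLI3 in progenitor clusters, and GSX2 in the ATP2B4-led cluster (51.8).

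Summed over D22, D24 and D26, EMX2 was the 1 member at least 2-fold higher in Glut-like than in GnRH-GABA-like cells (580 against 136, log2 ratio 2.09, 2.05 to 2.13). The share of all genes past 2-fold between these classes was not taken, so this count describes the members only. PAX6 had a ratio of -0.38 (-0.44 to -0.33), and the other members had lower levels in Glut-like cells, SP8 with -3.29, GLI3 with -4.02 and EMX1 with -4.20. The ATP2B4-led cluster, almost all from D22, carried most of the GLI3 and EMX1 in the GnRH-GABA-like class. With the GNRH1-led clusters alone, chosen after seeing the data, EMX1 had a ratio of 3.27 at levels below 1 CPM, and GLI3 one of -0.80, while EMX2 had 2.70 and SP8 -3.46.

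The genes whose levels over the 8 libraries were most like each member were taken from 8390 genes by Pearson's r of log2(CPM + 1), as a description with 8 points that share runs and days. For EMX2 they were IRAK1BP1 (0.991), BBIP1 (0.981) and EMX2OS (0.968), the last of which overlaps EMX2. For PAX6 they were TMUB2 (0.964), PDCL (0.962) and ADCY6 (0.961). OTX1 was most like H1F0 (0.990), WLS, which is needed to secrete Wnt ligands (0.977), and RPL9 (0.971), and EMX1 most like SSTR2 (0.982), PSMG2 (0.977) and TFAP2C (0.954). GLI3 was most like LFNG (0.993), CTGF (0.992) and COL4A5 (0.989) and had 135 genes over 0.95, RAX was most like LMAN1 (0.995), LCTL (0.985) and TMEM168 (0.983) with 90 such genes, and SP8 most like ARHGAP5 (0.988), HEATR6 (0.986) and EPB41L5 (0.984) with 30. NKX2-1 and GSX2 did not reach 20 CPM in any library and were not compared.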

How the data were processed

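Single cells of the WA09 line were read with 10x Genomics 3′ chemistry. The authors deposited UMI counts per gene and barcode, not normalized, made by Cell Ranger 3.1 per the submitters' notes (file headers: 3.1.0 for D22 to D26, 6.1.2 for the tagged libraries) on GRCh38, with the tagged conditions already separated. The depth of each library, 58073098 to 130440502 UMIs kept, limits the precision. Cells were kept by the study's limits on UMIs, genes, complexity and mitochondrial share, except the complexity limit for D0, which would have left 1 of 1009 cells. Counts were summed per library or cluster and divided by the total. Intervals were exact Poisson, exact binomial (of the split of UMIs, for ratios) or Clopper-Pearson at 95%. For co-detection, the Clopper-Pearson interval of the share of cells with both genes was divided by the expected share, taken as fixed. Genes with at most 3 UMIs in both libraries gave no ratio. A gene at 0 in one of the libraries or classes was counted as past 2-fold. No test was possible with 1 library per condition. Clusters (2000 variable genes without the members, 30 components, 20 neighbours, leidenalg 0.10.2 at resolution 0.5 for D22 to D26 and 0.3 for D10) took the class with the highest mean marker score if that was at least 0.5, at least 3 markers reached 10 CPM, and a marker was among the 10 leading genes or the score led the next by 1.0; no other class could have more markers among the 10. The limits of 0.5 and 1.0 were set after seeing values. Doublets stayed in, and an alternative left out the 6% with the highest simulated-doublet score per library. Scaling factors came from edgeR 4.0.16 and DESeq2 1.42.0 as alternatives. Python 3.11.15, NumPy 2.4.6 and SciPy 1.17.1 were used, and scripts were tested on simulated data. All 9 members were named. From each gene list, up to 4 genes with at least 20 CPM and the largest ratio past 2-fold at D10 were named, and partner genes such as OTX2, and results of some of these genes are not reported here. Members and lists were chosen with earlier results of these data known. RefSeq promoter windows were matched for 7 members; EMX1 and GLI3 had no entry.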

Additional observations from a re-analysis of the deposited data

Results flagged for a closer look

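RAX was flagged because its ratio with XAV939 over without lay on opposite sides of 0 on the 2 days, at a log2 ratio of 0.14 at D5 and -0.68 at D10. PAX6 was flagged because its ratio in Glut-like over GnRH-GABA-like cells lay on opposite sides of 0 in 2 libraries, at -2.16 at D24 and 0.47 at D26. Neither difference was tested, since each condition was 1 library.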

How the results depend on the processing

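Of 91 alternative values of the ratios with XAV939, 88 had the sign of the value in the report and 90 stayed on the same side of 2-fold (83 lay inside its counting interval). The 3 with another sign were SP8 at D5 with the scaling of edgeR (-0.025) and DESeq2 (-0.030) and EMX1 at D10 with doubled UMI limits (-0.013), all of values within 2-fold. EMX2 at D5 ran from -3.20 to -3.10, OTX1 at D10 from -2.13 to -2.05 and PAX6 at D5 from -0.99 to -0.93. Without the cell filter, 2 members were at least 2-fold higher at D10 (EMX1 with 1.25 and NKX2-1), and with a limit of 1.5-fold 4 were lower. The share of all genes was not taken in either setting, so these counts describe the members only. The number of pairs met at least 1.5 times as often as the product of their shares was 1 in D10_dSMADi when thinned to 2500 UMIs, 1 in D10_XAV939 when 2 UMIs were asked for, and at D22 1 at 2500 UMIs, 0 at 10000 UMIs, 1 with 2 UMIs asked for, 0 without doublets and 1 without the cell filter. These counts are also limited by the shares of the genes, which are larger in deeper cells and bound the ratio from above. The ratios of Glut-like over GnRH-GABA-like cells depended more on the setting: of 54 alternative values, 18 lay inside the counting interval of the value in the report, 32 outside it and 4 had the other sign of a value past 2-fold. No share of all genes past 2-fold was taken between these classes. In these cells, 2 members were at least 2-fold higher at the lower and the higher clustering resolution, at D24 alone and with the GNRH1-led clusters alone, an alternative chosen after seeing the data. The ratio of EMX1 was then reversed to 1.15, 1.33 and 3.27 at the lower resolution, the higher resolution and with the GNRH1-led clusters alone, and that of GLI3 to 0.061 at D24 alone, where EMX1 had 54 UMIs against 0 (lower 95% limit of the log2 ratio 0.18). The share of cells thinned to 5000 UMIs cannot show genes of a few CPM, and NKX2-1, GSX2 before D22 and EMX1 at D10 were limited by depth. The cause of these differences was not tested. No paired analysis was possible because each condition was 1 library.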
